A study of Mus musculus with 10 samples.

Results

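A set of 10 genes was followed through OKS reprogramming with and without FoxO6: the simple keratins Krt7, Krt8, Krt18 and Krt19, the surface protein genes Epcam and Cd24a, and the desmosome genes Dsp, Dsg2, Pkp2 and Jup. They were picked out by gene symbol, and all 10 were found among the 48476 genes of the series count table and the 50600 genes of the tables per library. The starting cells were mouse embryonic fibroblasts (MEF) from E13.5 embryos of the strain CBA/CaJ X C57BL/6J, carrying an Oct4-GFP reporter, and their RNA was sequenced in bulk. The cells were infected in 2 rounds with retrovirus made in PlatE packaging cells, which delivered OKS (Oct4, Klf4 and Sox2) to both arms, together with the red fluorescent protein DsRed in the control arm (OKS + DsRed) or with FoxO6 (OKS + FoxO6). After infection the cells were moved to iCD1 induction medium and collected at days 0, 1, 3, 5 and 7. Each arm gave 1 library a day, and the depth of the 10 libraries lay between 1208379 and 2225750 expected counts. Endogenous and viral Foxo6 transcripts are counted together, and Foxo6 stood at 0.61 to 2.29 TPM in OKS + DsRed and at 762 to 1356 TPM in OKS + FoxO6, day 0 included.

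Simple keratins build the intermediate filaments of single-layered epithelia, and each filament pairs a type II keratin (Krt7, Krt8) with a type I keratin (Krt18, Krt19). Desmosomes anchor these filaments at the cell border: desmosomal cadherins such as Dsg2 span the membrane, plakoglobin (Jup) and plakophilins (Pkp2) bind their tails, and desmoplakin (Dsp) ties the complex to keratin. Epcam is a homophilic adhesion protein of epithelia and of pluripotent cells, and Cd24a encodes a small glycosylphosphatidylinositol-anchored surface protein. Fibroblasts use vimentin in place of keratin, and the gain of keratins, Epcam and desmosomes belongs to the mesenchymal-to-epithelial transition (MET) that opens reprogramming.

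Levels are given as TPM, the unit of transcript abundance that is scaled per transcript length, and reads are the expected counts of a library. Ratios between arms and between days are ratios of reads per effective library size, with an exact 95% interval that covers counting error only. With 1 library per arm and day no p-value exists for a single day. The arms were compared over the 5 days with edgeR, with day as a factor, and the resulting log2 shift is OKS + FoxO6 minus OKS + DsRed. Libraries of 1 arm may come from 1 infected culture, so that p-values describe these 2 time courses and may reflect technical spread. In bulk RNA, fewer cells that express a gene and less RNA per cell cannot be told apart.

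The members fell into 3 kinds of course. Krt8, Epcam and Dsg2 started at or near 0 and climbed in both arms, to lower levels with FoxO6, and Krt7 and Krt18 followed late in OKS + DsRed. Krt19 fell and came back in both arms, lower with FoxO6 on each day. Cd24a and Jup, expressed at over 100 TPM from day 0, stood within a factor of 2 of each other between the arms on each day, and Dsp and Pkp2 lay between these kinds.

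**Figure D1:**
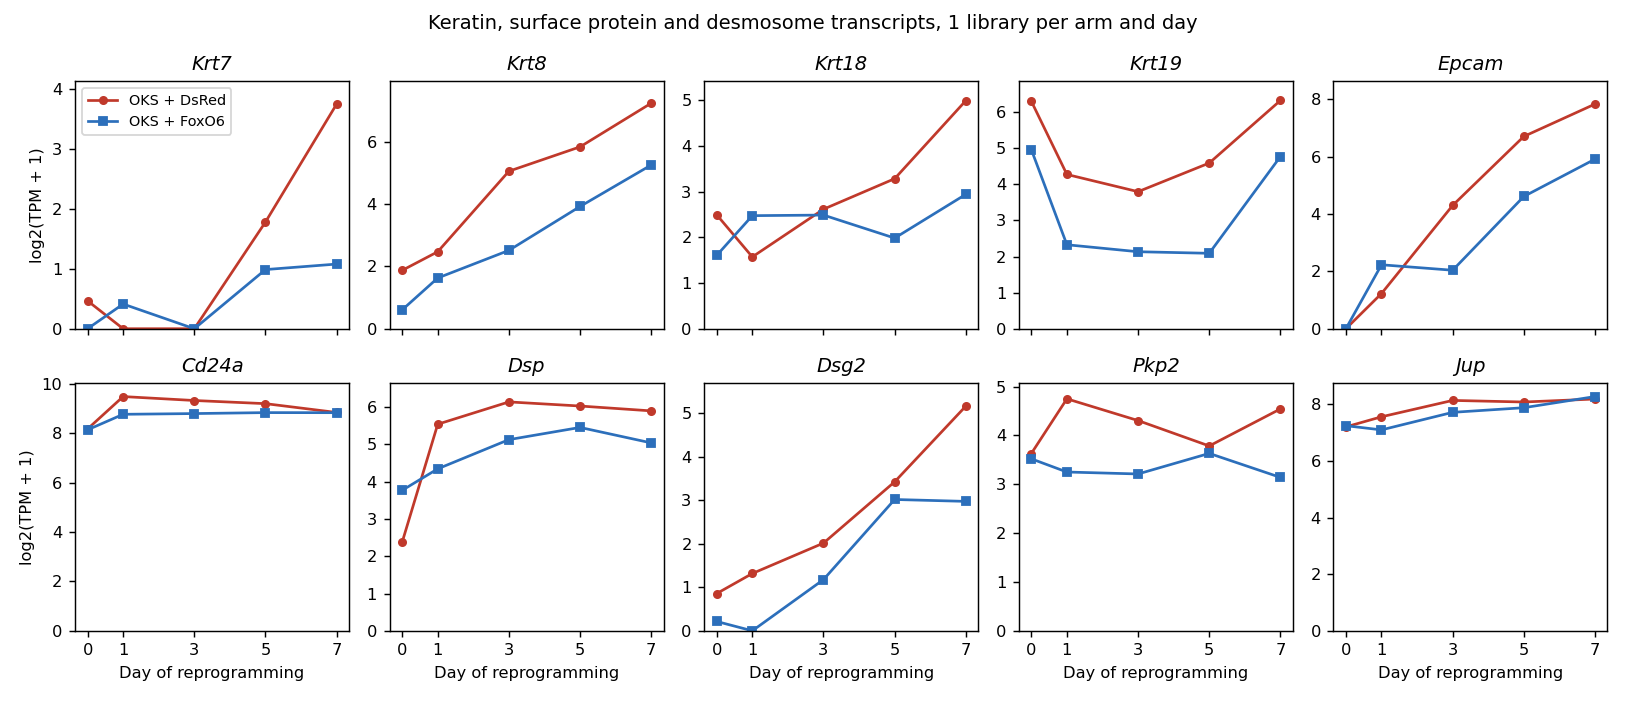
Level of each gene by day of reprogramming, on the scale log2(TPM + 1), with 1 point per library (red circles, OKS + DsRed; blue squares, OKS + FoxO6). Krt8, Epcam and Dsg2 rose in both arms with the blue line lower at day 7, Krt19 traced a trough, the lines of Cd24a met at day 7, and those of Jup crossed between days 5 and 7.

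Krt8, the type II keratin of simple epithelia, was lower with FoxO6 throughout. It stood at 2.66, 4.54, 32.2, 56.1 and 149.8 TPM at days 0, 1, 3, 5 and 7 of OKS + DsRed. With FoxO6 it stood at 0.52, 2.09, 4.71, 14.2 and 37.1 TPM on the same days. OKS + FoxO6 was lower on 5 of 5 days, although the first 2 days rest on 1 to 6 reads per library. The ratio was 0.144 (interval 0.0582 to 0.311) at day 3, 0.243 (0.147 to 0.389) at day 5 and 0.273 (0.201 to 0.364) at day 7. Over the 5 days the log2 shift was -2.06 ± 0.24 (SE; edgeR adjusted p = 0.000409).

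Krt8 rose over days in both arms. Its slope was 0.76 ± 0.07 log2 units per day in OKS + DsRed (edgeR adjusted p = 0.000234) and 0.79 ± 0.08 in OKS + FoxO6 (adjusted p = 0.00124). The difference between the slopes was 0.03 ± 0.09 log2 units per day (adjusted p = 0.941), an error that leaves room for a difference of either sign. The shift of Krt8 and both slopes stayed past the threshold when any 1 day was left out with the tested genes held fixed. A processed pseudogene, Krt8-ps, is annotated elsewhere, and the Krt8 counts were whole numbers in all 10 libraries.

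Krt18, the usual type I partner of Krt8, lies next to it on chromosome 15, where Krt8 (chr15:101996698-102004482, minus strand) and Krt18 (chr15:102028180-102032027, plus strand) are 23698 bases apart on GRCm38. The RefSeq promoters of the pair are shown because the neighbours reached unlike levels. Each run covers the 250 bases before the start annotated by RefSeq, 5′ to 3′ in the direction of the gene, on build GRCm38.p6. Capitals mark the E-box CACCTG, a sequence that Snail and Zeb repressors are known to bind, and the forkhead core TGTTTA, read on both strands.
Krt8 promoter, chr15:102004343-102004592, minus strand: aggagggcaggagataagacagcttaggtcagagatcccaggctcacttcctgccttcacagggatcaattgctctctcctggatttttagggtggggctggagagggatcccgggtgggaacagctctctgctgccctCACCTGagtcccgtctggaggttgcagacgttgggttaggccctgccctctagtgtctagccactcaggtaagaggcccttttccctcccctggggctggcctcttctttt
Krt18 promoter, chr15:102027966-102028215, plus strand: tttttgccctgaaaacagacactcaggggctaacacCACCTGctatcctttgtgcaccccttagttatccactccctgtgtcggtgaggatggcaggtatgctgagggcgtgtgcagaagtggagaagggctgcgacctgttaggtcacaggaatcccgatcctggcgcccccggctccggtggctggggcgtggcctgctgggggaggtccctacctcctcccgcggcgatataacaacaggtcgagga
Each of these windows held 1 CACCTG and no TGTTTA. GENCODE, which gives the gene coordinates here, starts both genes further upstream, so that 140 bases of the Krt8 window and 36 of the Krt18 window lie inside the GENCODE gene. The E-box stood in 17.2% of all 32851 mouse promoter windows of this length, and the forkhead core in 12.0%.

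Krt18 reached 30.7 TPM in OKS + DsRed at day 7, after 4.62, 1.97, 5.12 and 8.72 TPM at days 0, 1, 3 and 5. With FoxO6 it stayed between 2.04 and 6.67 TPM, from 3 to 8 reads per library. The arms did not differ beyond counting error through day 5, where the ratio was 0.325 (0.0716 to 1.21), and at day 7 the ratio was 0.239 (0.0965 to 0.517). Krt8 exceeded its partner by TPM in OKS + DsRed from day 1 on, at 149.8 against 30.7 TPM at day 7.

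Krt7, the other type II keratin among the members (chr15:101411043-101430313, plus strand), was the rarest member. It had 0 to 2 reads in OKS + DsRed until day 5 and 18 reads (12.4 TPM) at day 7. In OKS + FoxO6 it had 0 or 1 read until day 3 and 4 reads at each of days 5 and 7, or 0.98 and 1.11 TPM. The ratio at day 7 was 0.265 (0.0653 to 0.805). At day 5 TPM and reads disagreed in order, with 2.43 TPM from 2 reads in OKS + DsRed and 0.98 TPM from 4 reads in OKS + FoxO6, so no direction was read from that day.

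Krt19, a type I keratin without the usual tail domain (chr11:100140810-100148665, minus strand), was already present at day 0. It stood at 78.2, 18.4, 12.9, 23.1 and 79.3 TPM in OKS + DsRed and at 30.3, 4.02, 3.39, 3.26 and 26.3 TPM in OKS + FoxO6 at days 0, 1, 3, 5 and 7. Both arms fell after day 0 and had regained most of their starting level at day 7, and OKS + FoxO6 was lower on 5 of 5 days. The log2 shift was -1.67 ± 0.26 (edgeR adjusted p = 0.00232), and it held when any 1 day was left out. From day 0 to day 3 reads per effective library size fell to 0.112 of their start in OKS + DsRed (0.0491 to 0.227) and to 0.117 in OKS + FoxO6 (0.0363 to 0.293). At day 7 reads per effective library size were back to 0.875 (0.625 to 1.23) and 0.784 (0.465 to 1.30) of day 0. A straight line over days did not describe this course.

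Mesothelium, the keratin-positive lining that embryo preparations can carry, was checked beside Krt19. Upk1b, one of its markers, stood at 13.6 and 9.58 TPM at day 0 of OKS + DsRed and OKS + FoxO6 and at 0 and 1.31 TPM at day 7. Wt1, a transcription factor of mesothelium, stood at 7.14 and 4.98 TPM at day 0 and at 1.60 and 7.79 TPM at day 7, from 3 to 9 reads. Msln ranged from 63.3 to 170.5 TPM over the 10 libraries, while Upk3b and Lrrn4 stayed at or under 5.49 and 1.12 TPM. The summed level of the 5 mesothelial markers was 193, 66.6 and 80.1 TPM at days 0, 5 and 7 of OKS + DsRed. In OKS + FoxO6 it was 118, 70.0 and 87.2 TPM on these days, with day 5 the lowest in both arms. The part of these markers in the Krt19 course was not tested.

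Summed over the 4 simple keratins, OKS + DsRed held 85.8, 24.9, 50.3, 90.4 and 272 TPM at days 0, 1, 3, 5 and 7. OKS + FoxO6 held 32.8, 11.0, 12.7, 21.4 and 71.3 TPM. The balance of the 2 types turned over in each arm. Type II transcripts (Krt7 and Krt8) amounted to 0.0367 of type I (Krt18 and Krt19) at day 0 of OKS + DsRed, to 1.79 at day 3, to 1.84 at day 5 and to 1.47 at day 7. In OKS + FoxO6 the quotient was 0.0161, 0.589, 2.44 and 1.16 on days 0, 3, 5 and 7. The first of these rests on 1 read of Krt8 and none of Krt7, and the value of day 5 on 4 reads of Krt18 and 5 of Krt19. Krt19 made up 91.1% and 92.2% of simple keratin transcripts at day 0 in the 2 arms, and Krt8 made up 55.0% and 52.1% at day 7.

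**Figure D2:**
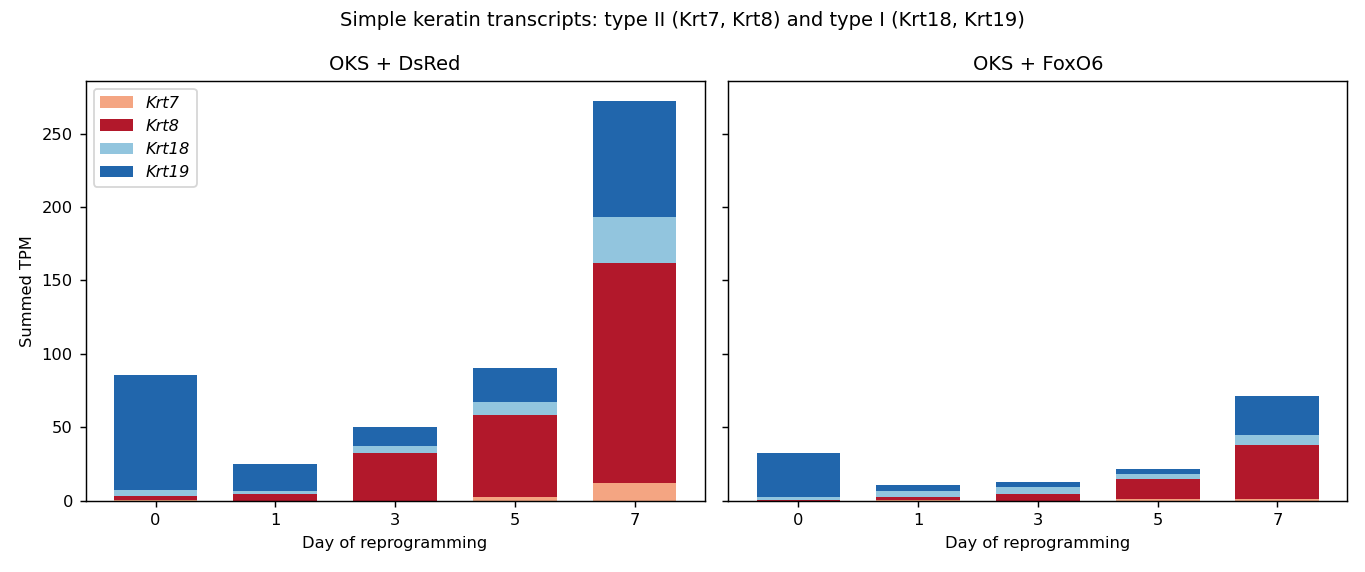
Summed TPM of the 4 simple keratins in each library, stacked by gene (reds, type II; blues, type I), with day on the horizontal axis and 1 panel per arm. Krt19 fills most of the bar at day 0 in both arms, Krt8 most of it from day 3 in OKS + DsRed and from day 5 in OKS + FoxO6, and the day 7 totals are 272 and 71.3 TPM.

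Epcam (chr17:87635979-87651129, plus strand) had no read at day 0 in either arm. In OKS + DsRed it then stood at 1.34, 18.7, 103.3 and 227 TPM at days 1, 3, 5 and 7, or 2, 27, 140 and 437 reads. In OKS + FoxO6 it stood at 3.69, 3.11, 23.5 and 59.3 TPM, or 6, 6, 47 and 105 reads. At day 1 the ratio was 2.72 (0.487 to 27.6), too wide an interval to read a direction, and OKS + FoxO6 was lower from day 3. The ratio was 0.164 (0.0553 to 0.405) at day 3, 0.218 (0.153 to 0.306) at day 5 and 0.287 (0.230 to 0.356) at day 7. Against 3 reads at day 0, the day 7 level per effective library size was at least 89.8-fold higher in OKS + DsRed and at least 48.6-fold higher in OKS + FoxO6. The exact intervals, which also cover the counting error of day 7, reached down to 72.7-fold and 38.8-fold.

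The log2 shift of Epcam was -1.86 ± 0.33 (edgeR adjusted p = 0.00518). It missed the threshold with DESeq2 (adjusted p = 0.186) and with limma on log2(TPM + 1) (adjusted p = 0.242), and without day 5 with the tested genes held fixed (adjusted p = 0.0587). Its slope was 1.12 ± 0.12 log2 units per day in OKS + DsRed (edgeR adjusted p = 0.000560) and 0.92 ± 0.13 in OKS + FoxO6 (adjusted p = 0.00387). The slopes differed by -0.21 ± 0.23 log2 units per day (adjusted p = 0.810), which did not pass the threshold. The promoter of Epcam is shown because it was the 1 promoter among those matched with both sequences, holding 2 matches to CACCTG and 1 to TGTTTA.
Epcam promoter, chr17:87635729-87635978, plus strand: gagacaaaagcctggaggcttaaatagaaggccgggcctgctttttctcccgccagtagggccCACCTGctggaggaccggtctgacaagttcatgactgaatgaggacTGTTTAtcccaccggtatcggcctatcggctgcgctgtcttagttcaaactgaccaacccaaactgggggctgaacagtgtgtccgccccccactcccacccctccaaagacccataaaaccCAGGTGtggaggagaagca
In the RefSeq promoter table used here 6 of the 10 members were matched, and 4 of these (Krt7, Krt8, Krt18 and Epcam) held a CACCTG. The Epcam window ends at the GENCODE start as well, and all 250 bases of the Krt7 window lie inside its GENCODE gene. None of the 6 held the longer forkhead site TGTTTAC, which contains TGTTTA and stood in 3.17% of all windows, the Klf site CACACCC (6.93%), the AP-1 site TGANTCA (6.75%) or the TATA box TATAAA (12.4%). The GC box GGGCGG stood in 4 of the 6 and in 32.7% of all windows. These are matches of letters and say nothing of binding.

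Cd24a (chr10:43578284-43584265, plus strand) was the most abundant member. It stood at 288, 716, 641, 586 and 458 TPM in OKS + DsRed and at 281, 435, 444, 456 and 455 TPM in OKS + FoxO6 at days 0, 1, 3, 5 and 7. The arms began and ended level, and in between OKS + DsRed rose above OKS + FoxO6. The ratio was 0.598 (0.540 to 0.663) at day 1, 0.683 (0.617 to 0.755) at day 3 and 0.738 (0.667 to 0.818) at day 5, against 1.09 (0.986 to 1.21) at day 7. The log2 shift of -0.36 ± 0.14 did not pass the threshold (edgeR adjusted p = 0.106). Without day 7 it did, at -0.49 (adjusted p = 0.0175).

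Dsp (chr13:38151294-38198577, plus strand) encodes the plaque protein that binds keratin filaments, and its main step came between days 0 and 1 of OKS + DsRed, before that of Krt8. In OKS + DsRed it went from 4.19 TPM at day 0 to 45.6, 69.6, 64.4 and 58.7 TPM at days 1, 3, 5 and 7. In OKS + FoxO6 it went from 12.6 TPM at day 0 to 19.3, 34.0, 42.9 and 31.9 TPM. The order of the arms crossed: the ratio was 2.16 (1.39 to 3.50) at day 0 and 0.409 (0.332 to 0.502) at day 1. From day 0 to day 1 reads per effective library size rose by a factor of 9.22 (6.13 to 14.5) in OKS + DsRed and of 1.74 (1.34 to 2.28) in OKS + FoxO6.

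Over the 5 days the shift of Dsp was -0.58 ± 0.25 and did not pass the threshold (edgeR adjusted p = 0.158). Without day 0 it was -0.85 (edgeR adjusted p = 0.00841). With no filter on low counts it was -0.54 (edgeR adjusted p = 0.00570), so that this pass did not come from a larger shift. Dsp reads were whole numbers in 8 of the 10 libraries, and 2 libraries of OKS + FoxO6 held reads that RSEM had shared with another gene model, so that the counting could split a few of them.

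Dsg2 (chr18:20558074-20604521, plus strand), the desmosomal cadherin of simple epithelia, stood at 0.81, 1.49, 3.04, 9.72 and 34.8 TPM in OKS + DsRed at days 0, 1, 3, 5 and 7. In OKS + FoxO6 it stood at 0.16, 0, 1.26, 7.09 and 6.85 TPM. The levels through day 3 rest on 0 to 7 reads per library, and at day 3 the ratio was 0.860 (0.247 to 3.10). At day 5 the arms held 38 and 41 reads and did not differ beyond counting error, with a ratio of 0.701 (0.440 to 1.12). At day 7 they held 193 and 35 reads, and the ratio was 0.216 (0.147 to 0.311). The gap thus opened between days 5 and 7. Dsg2 reached 10 reads in 4 of the 10 libraries and did not pass the filter for the fit across days.

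Pkp2 (chr16:16213318-16272712, plus strand), the plakophilin of simple epithelia and heart, stayed at 7.82 to 11.4 TPM in OKS + FoxO6 over the 5 days. In OKS + DsRed it stood at 11.4, 25.9, 18.8, 12.8 and 22.3 TPM at days 0, 1, 3, 5 and 7. The arms were close at days 0 and 5, with ratios of 0.833 (0.468 to 1.52) and 0.858 (0.495 to 1.51), and apart at days 1, 3 and 7, with ratios of 0.324, 0.471 and 0.385. The log2 shift was -0.92 ± 0.25 (edgeR adjusted p = 0.0353). This call ended without day 1 (adjusted p = 0.131), day 3 (0.127) or day 7 (0.0761), and with DESeq2 (0.0547) or limma (0.121).

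Jup (chr11:100368958-100397763, minus strand) encodes plakoglobin, which serves desmosomes and adherens junctions alike. It stood at 147, 188, 282, 271 and 292 TPM in OKS + DsRed and at 151, 136, 210, 236 and 310 TPM in OKS + FoxO6 at days 0, 1, 3, 5 and 7. The arms started level, OKS + FoxO6 lagged at days 1 and 3 with ratios of 0.729 (0.631 to 0.842) and 0.723 (0.647 to 0.808), and it stood higher at day 7 with a ratio of 1.20 (1.09 to 1.32). The log2 shift was -0.18 ± 0.13 (edgeR adjusted p = 0.405). The slope passed the threshold in OKS + FoxO6, at 0.18 ± 0.04 log2 units per day (adjusted p = 0.0140), though not without day 1 (0.0829), day 5 (0.0535) or day 7 (0.176). In OKS + DsRed it was 0.12 ± 0.04 (edgeR adjusted p = 0.0677), and it passed there with DESeq2 (adjusted p = 0.0383) and limma (0.0491). The difference of 0.06 ± 0.05 did not pass (adjusted p = 0.746). Its promoter is shown for contrast with Krt8 and Epcam: it held no CACCTG and 1 TGTTTA, on the other strand, where it reads TAAACA.
Jup promoter, chr11:100397791-100398040, minus strand: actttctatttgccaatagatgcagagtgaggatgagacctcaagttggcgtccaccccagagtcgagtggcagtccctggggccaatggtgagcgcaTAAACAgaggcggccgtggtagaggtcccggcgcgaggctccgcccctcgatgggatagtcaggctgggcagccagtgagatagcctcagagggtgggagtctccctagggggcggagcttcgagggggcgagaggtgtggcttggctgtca

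**Figure D3:**
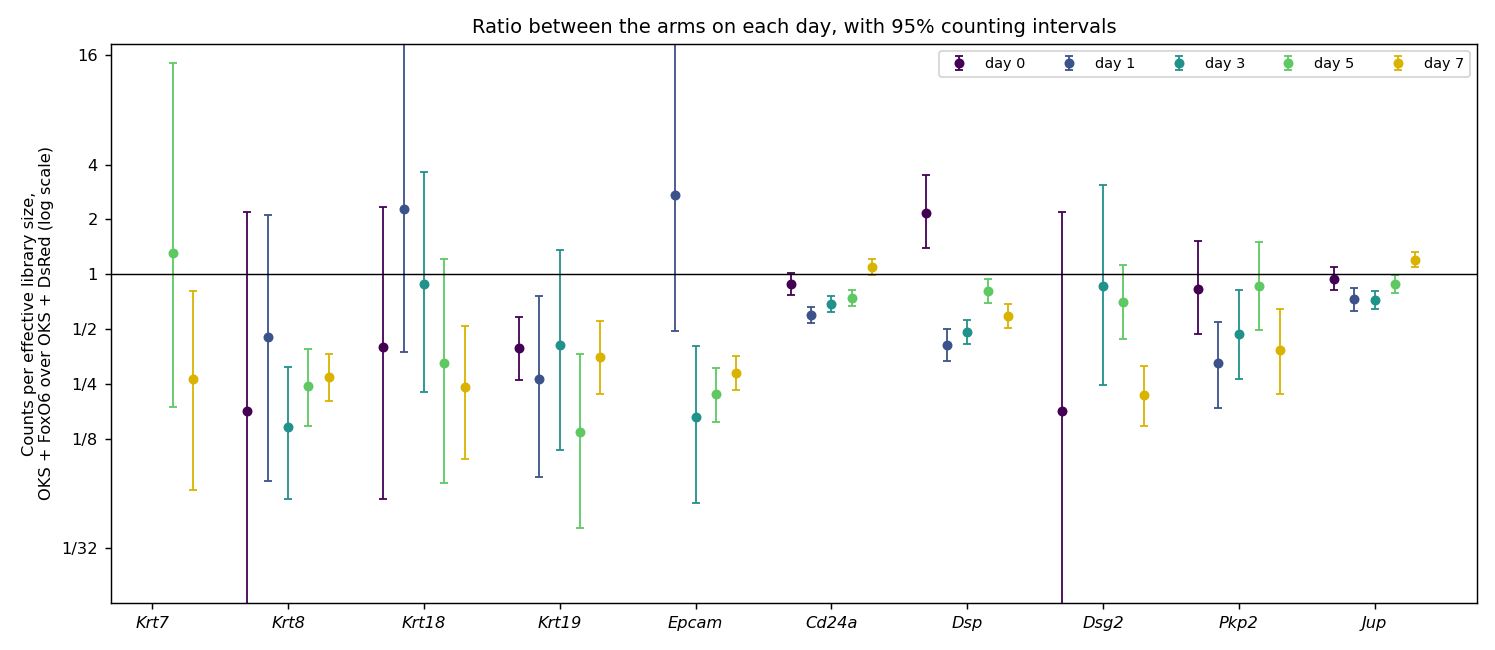
Ratio of reads per effective library size, OKS + FoxO6 over OKS + DsRed, on a log scale for each gene and day (colours), with bars for the exact 95% counting interval; ratios with 0 reads in a library are left out and 4 intervals run past the axis. At day 7 the points of Krt7, Krt8, Krt18, Krt19, Epcam and Dsg2 lie between 0.216 and 0.353, while those of Cd24a and Jup lie at 1.09 and 1.20.

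Counted day by day, genes lower with FoxO6 by more than 2-fold on the scale log2(TPM + 1) made up 6.41%, 9.43%, 11.8%, 11.4% and 16.5% of the 15011 genes with a mean of at least 1 TPM on days 0, 1, 3, 5 and 7. Of the 10 members, 2 were lower at day 0 (Krt8 and Krt19), 4 at day 1 (Krt19, Dsp, Dsg2 and Pkp2), 5 at day 3 (Krt8, Krt19, Epcam, Dsp and Pkp2) and 4 at day 5 (Krt8, Krt18, Krt19 and Epcam). At day 7 it was 7 of 10, with Cd24a, Dsp and Jup the remaining 3. Dsp at day 0 and Epcam at day 1 were higher by more than 2-fold, and no member was on days 3, 5 and 7. Among all genes 10.6%, 8.1%, 8.21%, 10.3% and 8.3% were higher by as much on the 5 days. Of the 22 lower values, 4 had a counting interval of the ratio that included 1 (Krt8 at day 0, Dsg2 at day 1, Krt19 at day 3 and Krt18 at day 5, from 0 to 9 reads per library), as had Epcam at day 1, from 6 and 2 reads. The median difference of the members was -0.29, -0.78, -0.92, -0.68 and -1.74 at days 0, 1, 3, 5 and 7, beside 0.09, 0, 0, 0.00 and -0.14 for all 15011 genes, so that the day 7 differences stand 0.14 lower on this scale than relative to the typical gene.

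Over the 5 days, 7 of the 10 members passed the filter on low counts for the fit, and Krt7, Krt18 and Dsg2 did not. Krt8, Krt19, Epcam and Pkp2 passed the threshold as lower (edgeR), beside 7.09% of all 11028 genes tested. No member passed as higher, as 6.86% of genes did. Without a term for day no member passed, and 1.53% of genes did in either direction. The 7 members had a median shift of -0.92, beside -0.02 for all genes tested. Krt8 and Epcam passed as rising over days in OKS + DsRed (edgeR), where 5.05% of genes did, and Krt8, Epcam and Jup in OKS + FoxO6, where 4.38% of genes did. With limma the slope in OKS + DsRed passed for 6 members, beside 1214 of 15011 genes. The difference in slope passed for 0 members and 0.0% of genes in edgeR, where 954 genes had an unadjusted p under 0.05, and DESeq2 called 26 genes and no member. With day as a factor edgeR called 216 genes, and with no filter on low counts 10 genes, again without a member.

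The day 7 levels of OKS + FoxO6 were placed on the control course, a comparison chosen after the values were seen. Of the 6 members that were more than 2-fold higher at day 7 than at day 0 in OKS + DsRed, 5 stood at day 7 of OKS + FoxO6 between the control levels of days 3 and 5 by TPM (Krt7, Krt8, Krt18, Epcam and Dsg2). Among all genes with such a rise the share was 25.9% of 3159. Without that condition it was 5 of the 10 members, beside 24.7% of 15011 genes. For Epcam the 3 values were 59.3 TPM against 18.7 and 103.3 TPM, for Krt8 37.1 against 32.2 and 56.1 TPM, and for Dsg2 6.85 against 3.04 and 9.72 TPM. By reads per effective library size it was 4 of the 6, without Krt7, whose place by TPM rests on 0 to 4 reads per library. The place of Krt18 rests on 5 to 8 reads per library, and the shares of all genes were taken by TPM only. Dsp, the sixth of these members, stood below both control days, at 31.9 against 69.6 and 64.4 TPM.

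By TPM the members at day 7 of OKS + DsRed ranked Cd24a, Jup, Epcam, Krt8, Krt19, Dsp, Dsg2, Krt18, Pkp2 and Krt7, from 458 to 12.4 TPM. In OKS + FoxO6 the order was Cd24a, Jup, Epcam, Krt8, Dsp, Krt19, Pkp2, Dsg2, Krt18 and Krt7, from 455 to 1.11 TPM. With 1 library each, neighbours in these orders cannot be separated by replicate spread, and Dsg2 and Krt18 (6.85 and 6.67 TPM) differed least with FoxO6.

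Other desmosome genes were read beside the members. Of 11 genes, 4 passed the filter for the fit, 1 passed as lower and 1 as higher, with a median shift of -0.05 over those 4. Pkp1, a plakophilin best known from stratified epithelia, rose from 5.04 to 168.7 TPM between days 0 and 7 of OKS + DsRed and from 6.11 to 50.4 TPM with FoxO6. Its shift was -1.83 ± 0.29 (edgeR adjusted p = 0.00223), and with limma it missed the threshold (adjusted p = 0.0516). Perp, a membrane protein of desmosomes and a p53 target, went the other way: it stood at 59.0 to 147 TPM in OKS + DsRed and at 74.9 to 296 TPM in OKS + FoxO6, higher with FoxO6 on each day, with a shift of 0.95 ± 0.19 (adjusted p = 0.00738). Among the genes not tested, the plakin Ppl stood at 10.4 and 1.62 TPM at day 7 of OKS + DsRed and OKS + FoxO6 (63 and 9 reads), its relative Evpl at 4.88 and 0.71 TPM (30 and 4 reads) and Pkp3 at 27.1 and 9.0 TPM (37 and 11 reads). Dsg3 had 7 reads and 0 reads there, and Dsc3 at most 3 reads in any library. Dsc1 and Dsg1a, cadherins of the epidermis, were listed at 0 in all 10 libraries.

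The shares of the plakophilin transcripts differed between days. Pkp2 gave 60.9% of the summed TPM of Pkp1, Pkp2 and Pkp3 at day 0 of OKS + DsRed and 10.2% at day 7, while Pkp1 went from 27.0% to 77.4%. With FoxO6 Pkp2 went from 54.4% to 11.6% and Pkp1 from 31.7% to 75.0%. At day 3 Pkp1 gave 75.2% in OKS + DsRed and 41.3% in OKS + FoxO6. Dsc2, the partner cadherin of Dsg2, was singled out after its values were seen: it peaked at day 1, at 39.6 TPM in OKS + DsRed and 21.8 TPM in OKS + FoxO6, and was down to 5.71 and 4.64 TPM at day 7. Dsg2 thereby went from 3.63% of the summed TPM of Dsg2 and Dsc2 at day 1 to 85.9% at day 7 in OKS + DsRed, and from 0 to 59.6% in OKS + FoxO6.

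**Figure D4:**
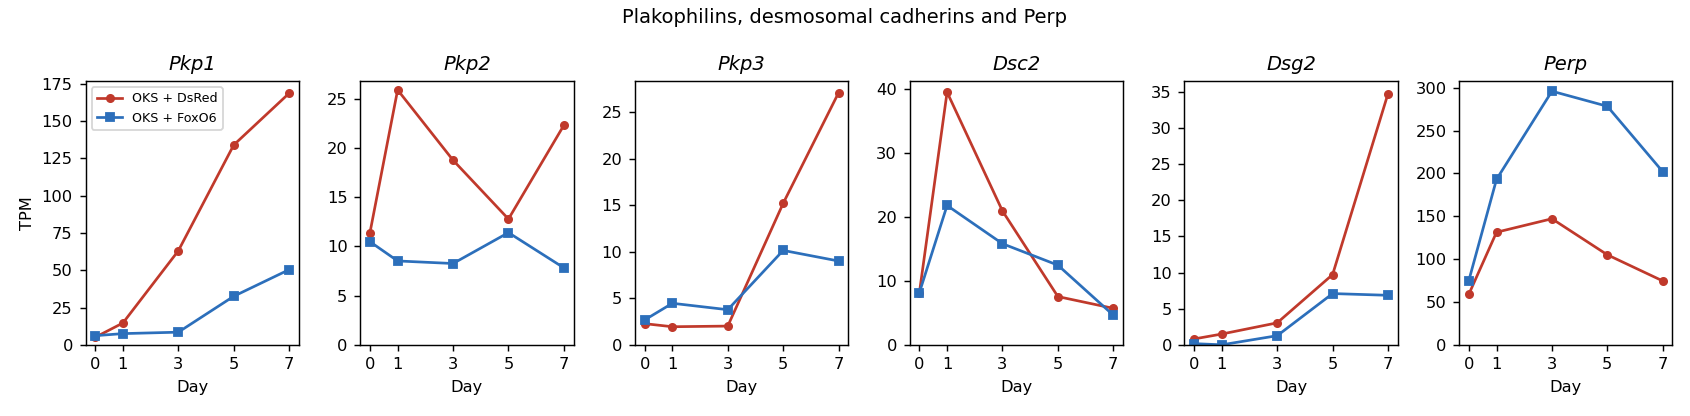
TPM of 3 plakophilins, the cadherins Dsc2 and Dsg2, and Perp by day, with 1 point per library (red circles, OKS + DsRed; blue squares, OKS + FoxO6). Pkp1 reaches 168.7 and 50.4 TPM at day 7, Dsc2 peaks at day 1 in both arms while Dsg2 rises late, and Perp is higher in OKS + FoxO6 on each day.

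Other keratins, most of them of stratified epithelia, were measured beside these 4. Of 13 genes, 2 passed the filter for the fit and both passed as lower. Krt6a, a keratin of activated and wounded epithelia, stood at 4.66 to 14.0 TPM in OKS + DsRed and at 0.47 to 6.63 TPM with FoxO6 (shift -2.17 ± 0.43, edgeR adjusted p = 0.00813). Krt13, a keratin of internal stratified epithelia, stood at 19.8 to 37.0 TPM and at 2.55 to 15.4 TPM, from 11 to 43 and 3 to 22 reads per library. Its shift was -1.86 ± 0.40 (edgeR adjusted p = 0.0121), and the call ended without day 3 (0.0651) or day 5 (0.0603). Neither gene passed as rising or falling over days in either arm.

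Hemidesmosomes anchor keratin to the basal matrix. Of their 6 genes, 5 were tested, 3 passed as lower and 1 as higher, with a median shift of -0.66. Itgb4, the integrin subunit that binds plectin, stood at 35.9, 213, 355, 288 and 248 TPM in OKS + DsRed and at 10.9, 65.8, 120, 131 and 135 TPM in OKS + FoxO6 (shift -1.36 ± 0.17, edgeR adjusted p = 0.000516). Its partner Itga6 (-1.12 ± 0.24, adjusted p = 0.0112, and 0.0504 without day 5) and the linker Plec (-0.66 ± 0.11, adjusted p = 0.00401) were also lower. Dst, the other large linker of the hemidesmosome, was higher (0.66 ± 0.13, adjusted p = 0.00758). Col17a1, the sixth gene and a transmembrane collagen, was not tested and stood at 3.99 TPM in OKS + DsRed and 11.2 TPM in OKS + FoxO6 at day 7 (21 and 55 reads).

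Among 8 partners and modifiers of Epcam, 5 were tested and 4 passed as lower, with a median shift of -0.71. St14 (matriptase, a membrane protease that cleaves Epcam) rose from 5.23 to 68.2 TPM between days 0 and 7 of OKS + DsRed and from 1.42 to 17.8 TPM with FoxO6. Its day 0 levels rest on 3 and 5 reads, and its shift was -1.73 ± 0.24 (edgeR adjusted p = 0.00124). Spint2, an inhibitor of that protease, rose from 13.5 to 212 TPM and from 6.33 to 88.4 TPM, with a shift of -1.68 ± 0.21 (adjusted p = 0.000542). Tspan8, another tetraspanin, did not pass the filter for the fit and stood higher with FoxO6 on each day, at 20.4 against 3.48 TPM at day 7 (20 and 4 reads). The tetraspanin Cd9 (-0.44 ± 0.12, adjusted p = 0.0310) and the hyaluronan receptor Cd44 (-0.54 ± 0.11, adjusted p = 0.0107) shifted less, and both calls ended when day 1, 3 or 5 was left out (adjusted p = 0.113, 0.164 and 0.135 for Cd9, and 0.0528, 0.0743 and 0.0592 for Cd44) or with limma (0.0575 and 0.0898).

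Intermediate filament genes other than keratins were counted too. Of 7 genes, 5 were tested and 4 passed as lower, with a median shift of -0.74. Nes (nestin) stood at 47.4 to 89.9 TPM in OKS + DsRed and at 15.7 to 54.6 TPM in OKS + FoxO6 (-1.53 ± 0.17, edgeR adjusted p = 0.000264). The nuclear lamins Lmna (-0.79 ± 0.11, adjusted p = 0.000989), Lmnb1 (-0.74 ± 0.11, 0.00174) and Lmnb2 (-0.61 ± 0.14, 0.0139, and 0.0933 without day 5 or 0.0701 with limma) also passed. Vim, the filament of fibroblasts, went from 3636 to 1718 TPM between days 0 and 7 of OKS + DsRed and from 2904 to 1490 TPM with FoxO6 and did not pass as shifted (-0.30 ± 0.12, adjusted p = 0.139). The 3 catenins of adherens junctions had a median shift of 0.03 and none passed.

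**Figure D5:**
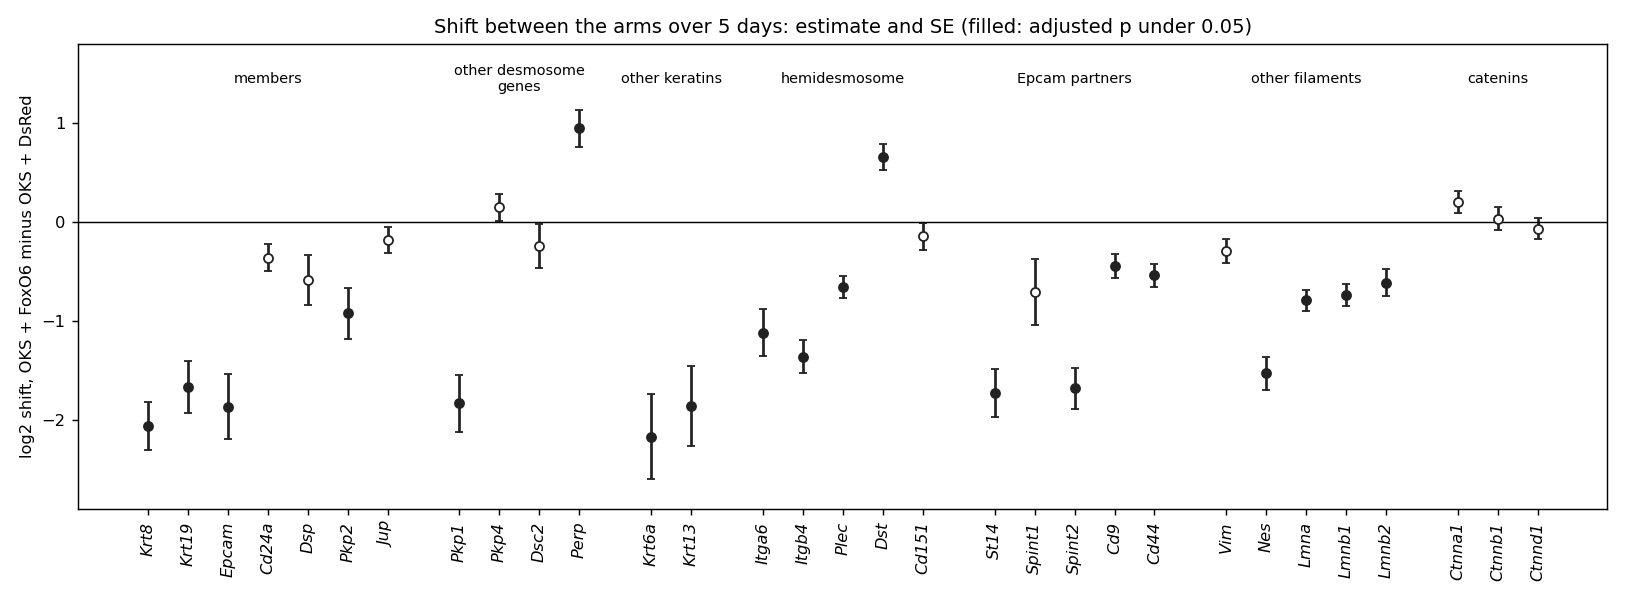
Log2 shift between the arms over the 5 days (OKS + FoxO6 minus OKS + DsRed) for the tested members and genes of the related lists, as edgeR estimate with SE, filled where the adjusted p was under 0.05. Krt8, Krt19 and Epcam lie between -2.06 and -1.67, Perp at 0.95 and Dst at 0.66 lie above 0, and the 3 catenins lie near 0.

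Markers of cell types were read beside these results. The summed TPM of 9 fibroblast markers went from 3923 at day 0 to 594 at day 7 in OKS + DsRed and from 3535 to 993 in OKS + FoxO6. The higher sum with FoxO6 at day 7 came from the collagen gene Col1a2, at 262 and 758 TPM, and without it the sums were 333 TPM in OKS + DsRed and 236 TPM in OKS + FoxO6. Over the 5 days the collagen gene Col3a1 was lower (shift -0.64 ± 0.15, edgeR adjusted p = 0.0193). Postn (periostin, a matrix protein) was higher (0.69 ± 0.17, adjusted p = 0.0215), as was the receptor gene Pdgfra (0.96 ± 0.24, adjusted p = 0.0238). These 3 calls ended with limma (adjusted p = 0.0539, 0.0815 and 0.151) and without day 5 (0.0968, 0.0767 and 0.0889), those of Col3a1 and Pdgfra also without day 3 (0.106 and 0.0976), those of Col3a1 and Postn without day 1 (0.0543 and 0.0756), and that of Pdgfra without day 0 (0.0643). The sum of 10 pluripotency markers went from 8.16 to 573 TPM in OKS + DsRed and from 0.71 to 195 TPM in OKS + FoxO6. Its largest part at day 7 was Tdh, at 246.5 TPM in OKS + DsRed and 127.75 TPM in OKS + FoxO6. The gap between the arms at day 7 differed by marker. Nanog stood at 58.35 and 8.31 TPM and Esrrb at 22.56 and 2.16 TPM, while Gdf3 stood at 55.8 and 30.84 TPM. The sum was lower with FoxO6 on each day, and its part in the levels of Krt8 and Epcam was not tested. Of these 10 markers 1 passed the filter for the fit: Tdh, a threonine dehydrogenase of pluripotent cells, passed as lower (-1.33 ± 0.24, edgeR adjusted p = 0.00583), though not with limma (0.105). Of 6 trophoblast markers Hand1 was listed at 0 throughout and the sum was at most 17.8 TPM in OKS + DsRed and 8.64 TPM in OKS + FoxO6. Of 6 keratinocyte markers, 5 of them also on the keratin list, Krt15 was listed at 0 and the sums were 12.3 to 16.1 and 2.95 to 12.7 TPM. The 5 cardiomyocyte markers summed to at most 7.62 and 5.38 TPM. Ptprc, Adgre1 and Csf1r of the 5 macrophage markers stayed under 1 TPM, and the list, mostly Cd68, summed to 14.1 to 55.8 and 18.0 to 29.0 TPM. The 4 endothelial markers summed to 20.9 to 54.8 and 30.2 to 142 TPM, mostly from the receptor genes Tek and Kdr, while Cdh5 stayed at or under 1.24 TPM. Pecam1, the fourth, stood at 5.73 TPM (18 reads) in OKS + DsRed and at 0.76 TPM (2 reads) in OKS + FoxO6 at day 7, and was not tested. Tek passed as higher with FoxO6 (0.95 ± 0.13, edgeR adjusted p = 0.00121), as did Kdr (2.19 ± 0.58, adjusted p = 0.0299), whose call ended without day 3 (0.129) or day 5 (0.139), with DESeq2 (0.0890) and with limma (0.105). The part of these cell types in the members' levels was not tested.

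Genes whose course was most like the members were ranked by Pearson's r over the 10 libraries with the mean z score of the 7 tested members, on log2(TPM + 1), among 11436 genes with a mean of at least 5 TPM outside the lists. The top 5 were Ankrd6 (r = 0.97), Ildr1 (0.97), Podxl (0.97), Dkkl1 (0.97) and L1td1 (0.96). Podxl, which encodes a cell surface sialomucin, stood at 25.6 to 308 TPM in OKS + DsRed and at 13.5 to 69.5 TPM in OKS + FoxO6. Among the members themselves, r with this mean ran from 0.26 for Krt19 and 0.63 for Pkp2 to 0.93 for Krt8. The 10 libraries are 2 time courses that share the order of days, so these values describe likeness of course and no more.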

How the data were processed

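Per the labels and the methods of the study, RNA was extracted with TRIzol, and the authors used RSEM with bowtie2 and the GENCODE M13 transcripts (mm10). Versions of RSEM and bowtie2 were not given in the sources used here. The deposited expected counts are RSEM estimates without normalization, and the authors also deposited TPM from RSEM for each library. The library kit is named differently in the labels and the methods. Reads that RSEM shares between gene models would appear as fractions, and 2 of the 100 member values were not whole within 0.005.

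Expected counts were rounded and fitted with edgeR 4.0.16 (quasi-likelihood, TMM, filterByExpr, 11028 genes) in R 4.3.3. The shift between arms had day as a factor (4 residual degrees of freedom), and slopes were fitted per arm (6 degrees). P-values were adjusted by Benjamini-Hochberg over all genes tested, with a threshold of 0.05, and the SE is the estimate divided by the root of its F statistic. DESeq2 1.42.0 and limma 3.58.1 were alternatives, as were other scaling, no filter, leaving out each day, a pseudocount of 0.1 in place of 1, and CPM. The scripts were tested on simulated counts. Ratios between arms and between days used reads per effective library size with exact conditional binomial intervals, and a count of 0 was set to 3 reads for bounds. Libraries of 1208379 to 2225750 expected counts give few reads to rare genes, and intervals cover counting error only.

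Samples were grouped by their titles. Members, gene lists and tests were chosen with earlier results of these data known. All members are named; from each list the genes past the threshold of the shift or slope difference are named, at most the 4 with the smallest p. Gene positions are from GENCODE M21 (GRCm38), and promoters from RefSeq (GRCm38.p6). FPKM columns were not used.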

Additional observations from a re-analysis of the deposited data

Results flagged for a closer look

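Dsp and Jup changed sides between days beyond the counting intervals of their ratios (OKS + FoxO6 over OKS + DsRed). The ratio of Dsp was 2.16 at day 0 and 0.409, 0.481, 0.808 and 0.588 at days 1, 3, 5 and 7. The ratio of Jup was 0.729, 0.723 and 0.884 at days 1, 3 and 5 and 1.20 at day 7. With 1 library per arm and day the difference between days was not tested against replicate spread. Dsp at day 0 rests on 25 reads in OKS + DsRed and 102 in OKS + FoxO6, and Jup at day 7 on 869 and 872.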

How the results depend on the processing

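In the shift between arms, 4 members passed as lower. With DESeq2 2 did, with limma on log2(TPM + 1) 2, without a day term 0 and with no filter on low counts 6. When 1 day was left out, 2 to 5 passed. The slope in OKS + DsRed passed for 2 members, for 6 with limma, for 4 with no filter on low counts, and for 0 to 3 when 1 day was left out. In OKS + FoxO6 it passed for 3 members, and for 0 to 4 when 1 day was left out. The lowest of these counts came without day 5 or day 7, where Krt8 and Epcam no longer passed the filter. With the genes of the full fit kept, an alternative chosen after seeing the data, both slopes of Krt8 and Epcam passed whichever day was left out. Members lower at day 0 numbered 5 in place of 2 with a pseudocount of 0.1.

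No member's slope differed between the arms under any alternative, and the sign of the difference was not fixed. For Krt8 it was -0.139 with limma and -0.0701 to 0.133 when 1 day was left out, for Epcam -0.540 to 0.0697, and for Jup -0.0115 to 0.125. Other scaling moved the median shift of all genes from -0.02 to -0.03. The shift already pairs the arms by day, and the fit without a day term is its unpaired form. A block by replicate number could not be fitted, since each group holds 1 library. Depth limits Krt7, Krt18 and Dsg2, which had under 10 reads in most libraries.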
